A study of Mus musculus with 9 samples.

Results

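The genes described here are 40 genes of tumour necrosis factor (TNF) signalling: 19 receptors, 6 TRAF proteins, 9 adaptors, kinases, ubiquitin enzymes and death effectors, and 6 ligands. They were taken as a list by name, all 40 matched, and they were examined among 21883 protein-coding mouse genes for peaks of the E proteins E2A and HEB. A gene counted as holding a peak when one touched its span or the 10 kb beyond either end. The peaks came from chromatin immunoprecipitation and sequencing of 3 stages of cultured thymocyte precursors, all grown from Rag2-deficient BALB/c fetal liver progenitors, which cannot rearrange their own antigen receptor genes, and all cultured on OP9-DL1 cells, which present a Notch ligand. DN3 cells, the stage at which thymocytes normally assemble their receptor genes, are not labelled as transduced and were harvested at day 7 of culture. The CD73- and CD73+ cells were DN3 cells (Thy1.2+ CD4- CD8- CD25+ CD44-) transduced with the gamma-delta receptor KN6 by overnight culture on virus-producing GP+E cells with IL7, Flt3L and polybrene, then sorted as YFP+ and cultured for 3 days more. They were then fixed and sorted as Thy1+ YFP+ CD4- CD8- CD24+ cells without or with CD73, the marker by which the submitters told uncommitted cells from cells committed to the gamma-delta fate. Each stage had 1 input, 1 E2A and 1 HEB sample, so the 9 samples gave 6 peak lists. Duplicates had been joined before peaks were called. No value below therefore has a replicate error, and no test between stages was possible. The number of animals or cultures behind each sample is not given in the sources used here, and the receptor, the transduction, the added culture and the CD24 and CD73 sort cannot be told apart as sources of a difference from DN3 cells.

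TNF receptors sit in the cell membrane as trimers. Some carry a death domain that recruits TRADD or FADD, and through them RIPK1 and caspase 8, while the others bind TRAF proteins directly. TRAF proteins and the ubiquitin ligases cIAP1 and cIAP2 build ubiquitin chains that switch on NF-kB, and A20 and c-FLIP limit that signal and the death signal. In the thymus, ligands of this family made by developing T cells, among them RANKL and lymphotoxin, act on the medullary epithelium, and receptors such as CD30, 4-1BB and OX40 are known for costimulation of T cells. The E proteins E2A (gene Tcf3) and HEB (gene Tcf12) bind DNA as dimers at the E-box, written CANNTG.

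In 3 of the listed genes a peak lay over the promoter window, the stretch from 250 bases before to 50 bases after a start site. How many promoters of all genes had such a peak was not counted. The upstream 250 bases of these 3 genes are shown here because they are the sites at which factor peaks and known promoter sequence coincide. The sequences are RefSeq's, build GRCm38.p6 (the assembly of mm10), written in the direction of the gene, with every CANNTG in capitals. They are Ltb (lymphotoxin beta) at chr17:35194257-35194506 on the plus strand, under DN3 peaks of both factors, Tnfrsf8 (CD30) at chr4:145315165-145315414 on the minus strand, under DN3 peaks of both factors and a CD73+ HEB peak, and Tnfrsf1b (TNF receptor type 2) at chr4:145246871-145247120 on the minus strand, under a DN3 HEB peak.
Ltb: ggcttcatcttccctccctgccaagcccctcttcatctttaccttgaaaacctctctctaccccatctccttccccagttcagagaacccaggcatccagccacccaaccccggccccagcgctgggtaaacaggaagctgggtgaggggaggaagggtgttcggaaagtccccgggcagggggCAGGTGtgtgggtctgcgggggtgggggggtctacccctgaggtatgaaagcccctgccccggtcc
Tnfrsf8: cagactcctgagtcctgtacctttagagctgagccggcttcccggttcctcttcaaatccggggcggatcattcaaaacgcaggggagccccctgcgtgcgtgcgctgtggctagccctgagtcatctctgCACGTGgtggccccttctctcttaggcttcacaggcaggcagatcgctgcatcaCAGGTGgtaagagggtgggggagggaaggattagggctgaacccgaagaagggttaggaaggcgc
Tnfrsf1b: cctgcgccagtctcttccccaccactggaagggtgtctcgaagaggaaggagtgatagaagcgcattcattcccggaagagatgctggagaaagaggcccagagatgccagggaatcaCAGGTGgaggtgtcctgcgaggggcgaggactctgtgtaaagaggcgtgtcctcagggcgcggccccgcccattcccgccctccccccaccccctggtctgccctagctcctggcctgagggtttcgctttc
All 3 hold a CAGGTG, whose first base lies at -66 in Ltb, -65 in Tnfrsf8 and -132 in Tnfrsf1b, counted from the start site. Tnfrsf8 also holds a CACGTG, from -119. Both strands were searched, and CACCTG and CAGGTG were counted as each other's reverse complement. Over the 250 bases before the start site, 16.9% of 21262 promoters of protein-coding genes held CACCTG or CAGGTG, against 9 of the 42 promoters known for 36 of the listed genes (21.4%). CAGCTG was in 12.1% of all promoters and 6 of the 42 (14.3%). Any CANNTG, a class that includes the preceding motifs, was in 62.8% and 30 of the 42 (71.4%). A match describes the letters and not a bound site.

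The lists held from 9407 to 23205 peaks on chromosomes 1 to 19, X and Y. Each peak carries a score, which in the authors' peak caller grows with the -log10 of the peak's p-value and is at least 50 in these files. A score is used here to describe or rank peaks within its own list only. Peaks of 100 or more are called strong, and they made up 40.6% and 30.7% of the DN3 E2A and HEB lists and 7.02% to 24.1% of the other 4. The median width of a peak was 617 bp for DN3 E2A and 721 bp for DN3 HEB, but 149 bp to 181 bp in the other lists, so a DN3 peak covers more ground. Read depth is unknown, and a gene with no called peak may still be bound. As a description of the cells, in DN3 cells 7 of 8 T lineage marker genes had an E2A peak and 8 of 8 one of HEB. In those lists the B cell markers had 0 of 5 and 0 of 5, the erythroid markers 0 of 4 and 0 of 4, the myeloid markers 3 of 5 and 2 of 5, and the stromal markers 1 of 4 and 2 of 4. In the CD73- and CD73+ lists 3 to 6 of the T lineage genes had a peak and at most 1 of each other marker list. Peaks are not expression, so these counts do not establish cell identity. In CD73+ cells the list labelled HEB met more of the DN3 E2A sites of the listed genes than the list labelled E2A, 12 against 4 of 32 peaks. Over all DN3 E2A peaks the shares were 27.9% and 9.27%. The CD73- HEB list also met more of these sites than the CD73- E2A list, 7 against 2 of 32 peaks. Over all DN3 E2A peaks those shares were 16.6% and 13.0%, so the direction is not particular to CD73+ cells. Whether the CD73+ labels are right was not tested. What is said of CD73+ cells rests on them, and the counts of listed genes are 8 for E2A and 15 for HEB as labelled and 15 and 8 with the lists exchanged.

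In DN3 cells 21 of the 40 genes (52.5%) had an E2A peak, where 26.2% of all protein-coding genes had one. HEB peaks were called at 19 (47.5%), against 24.3% of all genes. Both factors had a peak at 17 (42.5%), against 16.5%, and at least one of them at 23 (57.5%), against 34.0%. In CD73- cells the listed genes stood near or below the background for E2A, with 5 (12.5%) against 17.6%, and above it for HEB, with 10 (25%) against 17.1%. The latter did not hold for peaks in the gene span alone, which were called at 4 of the 40 genes, against 10.7% of all genes. In CD73+ cells 8 (20.0%) had an E2A peak against 23.7% of all genes, and 15 (37.5%) a HEB peak against 20.2%. Both factors were called at 4 genes in CD73- cells (10.0%, against 8.36% of all genes) and at 4 in CD73+ cells (10.0%, against 9.27%). A long gene meets more peaks by its length. When the rate of all genes was weighted to the spans of the listed genes, it was 25.1% and 22.7% for DN3 E2A and HEB, 14.5% and 14.8% for CD73- cells, and 19.8% and 18.1% for CD73+ cells. Within the 14 listed genes of at most 10 kb span, 6 had a DN3 E2A peak, where 14.8% of all genes of that span had one, and 5 a CD73+ HEB peak, where 11.7% had one. Both counts include Tnf, Lta and Ltb, which share the same DN3 E2A peak and the same CD73+ HEB peak. Among the 12 listed genes of 10 to 30 kb span the counts were 6 and 5. Of all genes of that span, 23.2% and 16.6% had such peaks. Among the 14 longer than 30 kb the counts were 9 and 5, where 40.7% and 32.1% of all such genes had one. The listed genes were chosen with earlier results of these data known, so these shares describe the list and carry no test.

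**Figure D1:**
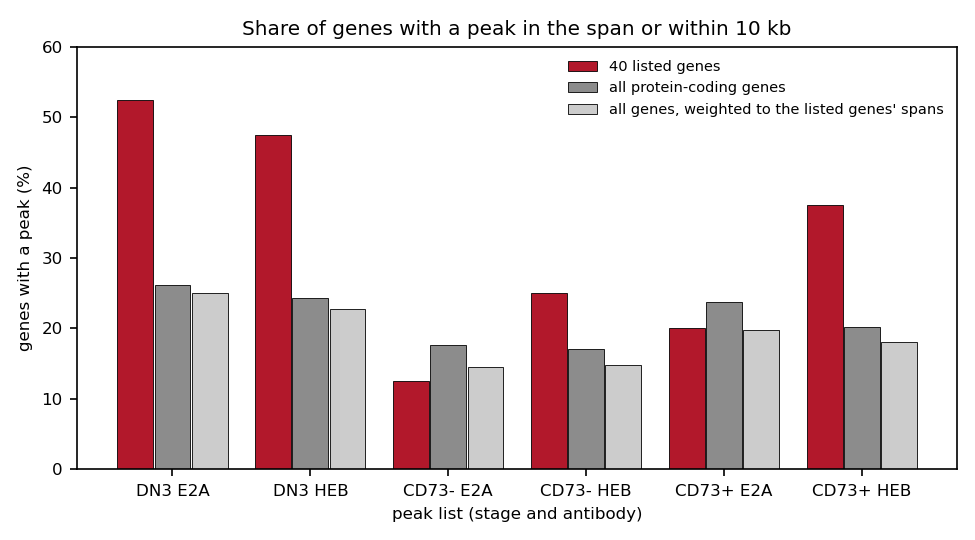
Percent of genes (vertical axis) with a peak in the span or within 10 kb, for the 6 peak lists (horizontal axis). Red bars are the 40 listed genes, dark grey bars all 21883 protein-coding genes, light grey bars all genes weighted to the spans of the listed genes; there are no error bars because each list is 1 pooled sample. The red bar is the tallest in the DN3 lists (52.5% and 47.5%) and the CD73+ HEB list (37.5%) and also in the CD73- HEB list (25%), and it is below dark grey in the CD73- E2A and CD73+ E2A lists.

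Counted by strong peaks alone, the listed genes also stood above all genes in DN3 cells. A strong E2A peak was called at 14 of the 40 genes (35.0%, against 13.4% of all genes) and a strong HEB peak at 13 (32.5%, against 10.5%). In CD73- cells the counts were 2 for E2A (5.00%, against 3.05%) and 3 for HEB (7.50%, against 4.07%), and in CD73+ cells 2 for E2A (5.00%, against 4%) and 8 for HEB (20.0%, against 7.43%). Over the 6 lists, 26 genes had a peak somewhere (65.0%, against 54.5% of all genes), 18 had a strong one (45.0%, against 19.2%), and 14 had none. The counts of genes with a strong peak in DN3 E2A, in DN3 HEB and in any list each include Tnf, Lta and Ltb as separate genes. These share 1 DN3 E2A peak of 109 and 1 DN3 HEB peak of 218.

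**Figure D2:**
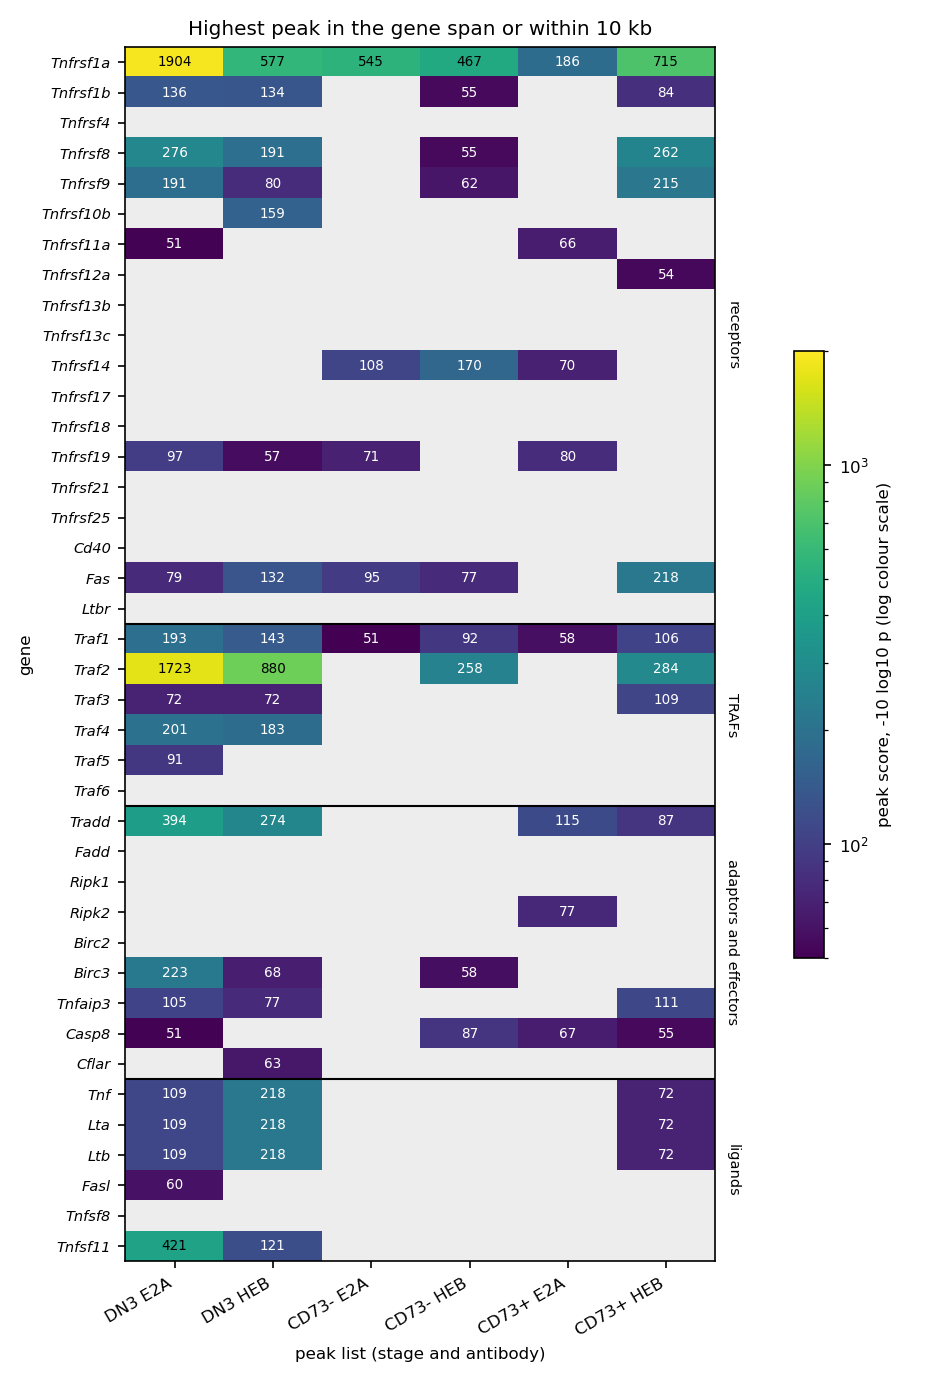
Highest peak score (colour, log scale, with the score printed in each cell) of each listed gene (rows, grouped by role) in each peak list (columns); a grey cell means that no peak was called in the span or within 10 kb. Tnfrsf1a is the one row with strong peaks in all 6 lists, Traf2 has the second highest score in the DN3 E2A column and the highest in the DN3 HEB column, and the 3 neighbouring genes Tnf, Lta and Ltb show the same values because they share the same peaks. Colours may be compared down a column, not along a row.

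Among the receptors, 10 of 19 had a peak in some list, a share near the 54.5% of all genes, and 7 a strong one, where 19.2% of all genes had one. Tnfrsf1a, which encodes the death domain receptor TNFR1, had the highest DN3 E2A score of the listed genes. Its E2A peak in DN3 cells scored 1904, rank 97 of 12357, and lay inside the gene on chromosome 6 at 125354725 to 125356024, with its midpoint 5.65 kb downstream of the start site. Its HEB peak in DN3 cells scored 577, rank 318 of 11619. In CD73- cells the scores at the same place were 545 for E2A and 467 for HEB, and in CD73+ cells 186 for E2A and 715 for HEB. The 6 peaks overlap in a region of 1401 bp, the only region of the listed genes called in every list. Within its own list, the CD73+ E2A peak ranked 330 of 23205 and the CD73+ HEB peak 175 of 10194. A second CD73+ E2A peak, of 58.8, lay within the neighbouring gene Plekhg6. Ltbr, the lymphotoxin beta receptor gene that lies nearby on chromosome 6, had no peak within 10 kb in any list.

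Tnfrsf8 encodes CD30, a costimulatory receptor of activated lymphocytes. At 3 places it had a DN3 peak of each factor and a CD73+ HEB peak. Over the start site the scores were 276 for DN3 E2A, on chromosome 4 at 145314794 to 145315584, 101 for DN3 HEB and 91.7 for CD73+ HEB. About -4.3 kb from the start site, where a negative distance is upstream, they were 226, 191 and 262, and here the CD73- HEB list also had a weak peak of 55.0. Inside the gene, 2.49 kb downstream, they were 134, 76.9 and 50.1. A further DN3 E2A peak of 90.9 lay alone, deep in the gene. Neither list of E2A in the transduced cells had a peak at Tnfrsf8.

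Tnfrsf9, which encodes the costimulatory receptor 4-1BB, followed the same pattern at a site beyond the 3′ end of the gene. There the DN3 E2A peak scored 191, the DN3 HEB peak 80.4, the CD73- HEB peak 62.2 and the CD73+ HEB peak 215. Inside the gene it had a DN3 E2A peak of 97.2 and a CD73+ HEB peak of 65.3, each alone. Fas, the death receptor gene, had 1 region upstream of its start site with peaks in 5 lists. Its scores were 79.0 and 132 for DN3 E2A and HEB, 95.1 and 77.4 for CD73- E2A and HEB, and 218 for CD73+ HEB. The DN3 HEB peak of Fas lay on chromosome 19 at 34287400 to 34288220, -2.85 kb from the start site. No CD73+ E2A peak was called there, and Fas had no other region.

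Tnfrsf1b, the gene of the second TNF receptor, which lacks a death domain, had DN3 peaks of 136 for E2A and 134 for HEB beyond its 3′ end, and a CD73+ HEB peak of 83.95 lay within them. Its promoter peak in the DN3 HEB list was weak, at 59.3, and its CD73- HEB peak, at 54.9, lay elsewhere in the gene. A DN3 E2A peak of 69.3 lay upstream and a DN3 HEB peak of 50.4 beyond the 3′ end, each alone. Tnfrsf10b, a receptor for the death ligand TRAIL, had a DN3 HEB peak of 159 and no other, 8343 bp outside the gene. Tnfrsf14, which encodes HVEM, the receptor for LIGHT, was the only gene with a strong peak and none in DN3 cells. Its peaks scored 108 for CD73- E2A, 169.9 for CD73- HEB and 70.0 for CD73+ E2A, and all 3 lay within 153 bp of each other, 9754 bp or more outside the gene and slightly nearer to Prxl2b. Those peaks are narrow, 68 bp, 138 bp and 146 bp wide, and Tnfrsf14 is the gene just inside the 10 kb limit. The nearest gene outside the limit was Tnfrsf4, with a CD73+ E2A peak of 60.6 at 11417 bp.

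The other receptors with peaks had only weak ones. Tnfrsf19, the gene of the receptor TROY, had peaks in 4 lists, at 52.7 and 97.5 in DN3 E2A, 56.8 in DN3 HEB, 70.55 in CD73- E2A and 79.6 in CD73+ E2A. Of these the DN3 HEB peak and the CD73- E2A peak overlapped, and the rest stood alone. Tnfrsf11a, which encodes RANK, the receptor for RANKL, had an E2A peak of 51.2 in DN3 cells and 66.2 in CD73+ cells at neighbouring places that did not touch. Tnfrsf12a, which encodes Fn14, the receptor for TWEAK, had a CD73+ HEB peak of 54.2, which lay in the neighbouring gene Cldn6.

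Of the 6 TRAF genes, E2A was called at 5 and HEB at 4 in DN3 cells, against 26.2% and 24.3% of all genes. Strong peaks were called at 3 for E2A and 3 for HEB, against 13.4% and 10.5%. Traf2 encodes the ubiquitin ligase that brings cIAP proteins to TNF receptors. Its DN3 E2A peak scored 1723, rank 120 in its list, on chromosome 2 at 25548841 to 25549987, -2.47 kb from the start site. The DN3 HEB peak over it scored 880.4, rank 138, the highest DN3 HEB score of the listed genes. At the same place the CD73- HEB list had a peak of 258 and the CD73+ HEB list peaks of 284 and 108, whereas neither E2A list of the transduced cells had one. Next to it, -4.84 kb from the start site, the DN3 HEB list had a further peak of 122 and the CD73- HEB list one of 84.6, without an E2A peak.

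Traf4 had peaks in DN3 cells only, at 2 places. In the gene they scored 191 for E2A and 183 for HEB, and upstream, within the neighbouring gene Nek8, 201 and 104. Traf1, an NF-kB-induced partner of TRAF2, had peaks in all 6 lists, though not at 1 place. Upstream of its start site the scores were 193 for DN3 E2A, 57.5 for DN3 HEB and 106 for CD73+ HEB. Beyond its 3′ end the DN3 HEB list had a peak of 143, and each of the 4 CD73- and CD73+ lists had a weak peak, from 50.6 to 91.6, in a stretch of 2260 bp without any 2 of them touching. Traf3, which restrains the non-canonical NF-kB pathway, had DN3 peaks of 72.3 for E2A and 62.8 for HEB deep inside the gene. Upstream of its start site it had a DN3 HEB peak of 72.5 and a CD73+ HEB peak of 109. Traf5 had a DN3 E2A peak of 90.7 alone. Traf6, which serves interleukin 1, Toll-like and RANK receptors, had none within 10 kb. The nearest DN3 peaks lay 27.4 kb away, next to Rag1, at 552 for E2A and 127 for HEB.

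Of the 9 adaptors, kinases, ubiquitin enzymes and death effectors, 6 had a peak in some list and 3 a strong one, against the same 54.5% and 19.2% of all genes. Tradd, the adaptor that binds the death domain of TNFR1, had the highest score of this group in both DN3 lists. Inside the gene the DN3 scores were 394 for E2A, on chromosome 8 at 105259502 to 105260299, and 274 for HEB. The CD73+ lists had peaks within the same region, 115 for E2A and 87.1 for HEB, and neither CD73- list did. A second region, in the neighbouring gene B3gnt9, had a DN3 E2A peak of 118 and a CD73+ HEB peak of 64.2. Birc3, which encodes cIAP2, had DN3 peaks of 223 for E2A and 67.7 for HEB inside the gene, the E2A peak on chromosome 9 at 7857611 to 7858245, and the CD73- HEB list a weak peak of 57.7 within it. Its neighbour Birc2, which encodes cIAP1, had no peak within 10 kb. Tnfaip3, which encodes A20, had peaks inside the gene close to its start site of 105 for DN3 E2A, 77.4 for DN3 HEB and 111 for CD73+ HEB.

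Casp8, the initiator caspase of death receptors, and Cflar, which encodes its inhibitor c-FLIP and lies beside it on chromosome 1, had weak peaks only. Casp8 had DN3 E2A peaks of 50.8 and 50.8 inside the gene, each overlapped by a CD73+ E2A peak, at 66.7 and 62.5. Its HEB peaks were 57.0 and 87.2 in CD73- cells and 54.55 in CD73+ cells. Another CD73+ E2A peak, of 63.1, lay alone, and no peak of Casp8 reached 100. Cflar had a DN3 HEB peak of 63.2 alone. Ripk2, a kinase gene of the NOD receptor pathway, had a CD73+ E2A peak of 77.0 alone, while Fadd and Ripk1 had no peak.

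Of the 6 ligand genes, E2A was called at 5 and HEB at 4 in DN3 cells, against 26.2% and 24.3% of all genes. The peaks of Tnf, Lta and Ltb, however, are the same peaks. These 3 genes, which encode TNF, lymphotoxin alpha and lymphotoxin beta, lie within a few kb of each other on chromosome 17. In DN3 cells they share an E2A peak of 109 and a HEB peak of 218, the latter at 35193872 to 35194653, and both lie over the Ltb promoter whose sequence is given above. A CD73+ HEB peak of 72.4 lay in Lta, at another place. Counted as 1 locus, they lower the DN3 counts from 21 to 19 genes for E2A and from 19 to 17 for HEB. The CD73+ HEB count then falls from 15 to 13. Tnfsf11, which encodes RANKL, had a DN3 E2A peak of 421 inside the gene on chromosome 14 at 78288716 to 78289303, 19.03 kb downstream of the start site. A HEB peak of 121 overlapped it, another HEB peak of 93.0 lay nearby, and none was called in CD73- or CD73+ cells. Fasl, the ligand of Fas, had a DN3 E2A peak of 59.9 alone, and Tnfsf8, the CD30 ligand gene, had none. No ligand gene had an E2A peak in the transduced cells or a HEB peak in CD73- cells. With 17.6%, 23.7% and 17.1% of all genes called in the CD73- E2A, CD73+ E2A and CD73- HEB lists, nothing can be read from 0 of 6, especially as 3 of the 6 share a locus.

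By stage, as the lists are labelled, the most frequent pattern of E2A among genes that had a peak of it was DN3 cells alone. A total of 14 genes (35.0%, against 13.3% of all genes) had an E2A peak in DN3 cells only, 1 (2.50%, against 3.29%) in DN3 and CD73- cells, 3 (7.50%, against 4.03%) in DN3 and CD73+ cells and 3 (7.50%, against 5.54%) at all stages. An E2A peak outside DN3 cells only was found at 2 genes (5.00%, against 18.7%). For HEB the spread was wider, with 5 genes (12.5%, against 9.37%) in DN3 cells only, 1 (2.50%, against 2.71%) in DN3 and CD73- cells, 6 (15.0%, against 4.87%) in DN3 and CD73+ cells, 7 (17.5%, against 7.37%) at all stages and 3 (7.50%, against 13.0%) outside DN3 cells only. The 6 include Tnf, Lta and Ltb, whose shared DN3 HEB peak and shared CD73+ HEB peak lie at different places. The 14 genes with E2A in DN3 cells only include them too, and that count is 12 with them as 1 locus. No E2A peak was called at any stage at 17 genes (42.5%, against 55.2%) and no HEB peak at 18 (45.0%, against 62.7%). These patterns depend on the CD73+ labels. With the CD73+ lists exchanged, E2A was in DN3 cells only at 6 genes (against 11.0% of all genes) and in DN3 and CD73+ cells at 11 (against 6.37%), and HEB in DN3 cells only at 9 (against 10.3%) and at all stages at 2 (against 5.84%). The order of the HEB patterns also turned with peaks of at least 100, to 8 for DN3 alone and 2 for every stage, and with peaks in the gene span alone, to 5 and 1. Pattern shares over all genes were not computed for that score or for the gene span alone.

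**Figure D3:**
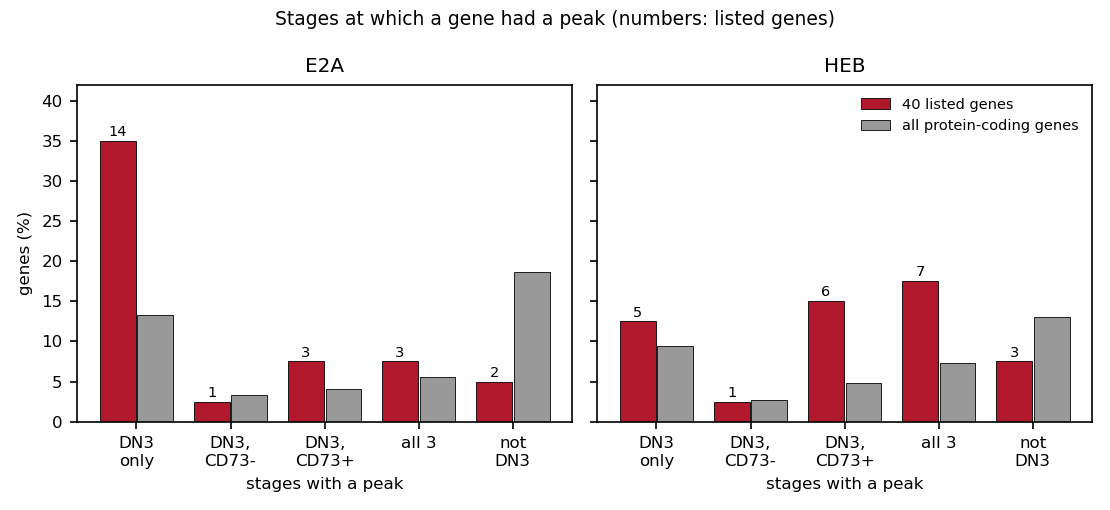
Percent of genes (vertical axis) by the stages at which a peak of E2A (left) or HEB (right) was called (horizontal axis); red bars are the 40 listed genes, with their number above, and grey bars all protein-coding genes. Genes with no peak of the factor at any stage are left out. Tnf, Lta and Ltb share their peaks but count as separate genes, in the E2A bar for DN3 only and the HEB bar for DN3 and CD73+. For E2A the DN3-only bar holds 14 listed genes, and for HEB the bars hold 5 in DN3 cells only, 6 in DN3 and CD73+ cells and 7 at all 3 stages; that order turns with the CD73+ lists exchanged (9 in DN3 only, 2 at all stages), with scores of at least 100 (8 and 2) and in the gene span alone (5 and 1).

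Genes with a peak in DN3 cells were also followed into the later lists, as labelled. Of the 21 listed genes with a DN3 E2A peak, 4 (19%) had an E2A peak in CD73- cells and 6 (28.6%) in CD73+ cells, where the shares over all genes with a DN3 E2A peak were 33.8% and 36.6%. A CD73- HEB peak was called at 9 of the 21 (42.9%, against 37.6%) and a CD73+ HEB peak at 14 (66.7%, against 48.9%). Of the 19 with a DN3 HEB peak, 8 (42.1%, against 41.5%) had one of HEB in CD73- cells and 13 (68.4%, against 50.3%) in CD73+ cells. Of the 14 genes with E2A peaks in DN3 cells only, 9 (64.3%) had a CD73+ HEB peak, against 33.7% of the 2913 genes with that E2A pattern. Tnf, Lta and Ltb count here through 1 CD73+ HEB peak in Lta, away from their DN3 E2A site, and with them as 1 locus the count is 7 of 12 (58.3%). These are Tnfrsf1b, Tnfrsf8, Tnfrsf9, Traf2, Traf3, Tnfaip3 and the Tnf, Lta and Ltb cluster. The remaining 5 are Traf4, Traf5, Birc3, Fasl and Tnfsf11.

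A gene can have peaks at several stages without sharing a site, so peaks were also joined into regions where they touched. The listed genes held 60 regions, of which 35 were called in 1 list (58.3%, against 82.3% of 58451 regions of the genome) and 6 in 4 or more (10.0%, against 3.64%). The shares over the genome, here and for joint regions below, take in regions at any distance from a gene. Those of the listed genes lie within 10 kb of one, so the sets are unlike. Of the 35, 33 had a score under 100, 12 came from the DN3 E2A list and 10 from the DN3 HEB list. Of 17 genes with both factors in DN3 cells, 16 had both in 1 region. The exception is Tnfrsf19. Tnf, Lta and Ltb count among the 16 through the same region, and the like share over all genes was not computed. There were 17 regions with both factors in DN3 cells, called joint regions here. Later peaks are given beside their share over all 5292 joint DN3 regions of the genome. A CD73+ HEB peak lay in 11 of the 17 (64.7%, against 49.9%), a CD73- HEB peak in 6 (35.3%, against 32.0%), a CD73- E2A peak in 2 (11.8%, against 24.0%) and a CD73+ E2A peak in 2 (11.8%, against 16.0%). No later peak lay in 5 (29.4%, against 42.6%). At the level of regions, E2A was called at all 3 stages at Tnfrsf1a alone. HEB was called at all 3 stages in 5 regions, those of Tnfrsf1a, Tnfrsf8, Tnfrsf9, Fas and Traf2. Shares over all regions of the genome were not computed for regions called at all 3 stages.

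In shares of peaks, 17 of 30 DN3 HEB peaks of the listed genes overlapped a DN3 E2A peak by at least 1 bp, 56.7% (95% Wilson interval 39.2% to 72.6%), against 46.0% of all DN3 HEB peaks. In CD73- cells the share was 3 of 12, 25% (8.89% to 53.2%), against 22.2%, and in CD73+ cells 2 of 19, 10.5% (2.94% to 31.4%), against 14.8%. Of the 32 E2A peaks of DN3 cells, 2 met an E2A peak of CD73- cells, 6.25% (1.73% to 20.1%), against 13.0% of all. A CD73+ E2A peak overlapped 4 of them, 12.5% (4.97% to 28.1%), against 9.27%, and a CD73+ HEB peak 12, 37.5% (22.9% to 54.7%), against 27.9%. Of the 30 HEB peaks of DN3 cells, 7 met a HEB peak of CD73- cells, 23.3% (11.8% to 40.9%), against 19.4%, and 12 a CD73+ HEB peak, 40% (24.6% to 57.7%), against 27.2%. The shares over whole lists take in peaks at any distance from a gene. These intervals cover counting error only, and each includes the share over the whole list. The exception among the shares computed was that of CD73- E2A peaks, of which 3 of 5 met a CD73- HEB peak, 60% (23.1% to 88.2%), against 16.5% of all. That share rests on 5 peaks, and the 3 that overlapped were those of Tnfrsf1a, Tnfrsf14 and Fas. Each stage has 1 input sample, and its part in the overlap of the E2A and HEB lists was not tested.

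Distances of regions were taken from the start sites of the listed genes alone. The like shares over all regions of the genome were not computed. Of the 56 regions of genes with a known start site, 6 had their midpoint within 1 kb of it, 16 lay 1 to 5 kb away, 14 lay 5 to 20 kb away and 20 farther. Regions called in 2 or more lists were 3, 9, 7 and 4 of these. Of the 60 regions, 30 overlapped the span of a listed gene and 7 were nearest to a gene outside the list, such as those of Tnfrsf14 and the upstream region of Traf4. Among the 56, the 3 highest scores in the DN3 E2A list belonged to Tnfrsf1a, Traf2 and Tnfsf11, none of them within 1 kb of the start site. In the DN3 HEB list they belonged to Traf2, Tnfrsf1a and the Ltb promoter.

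**Figure D4:**
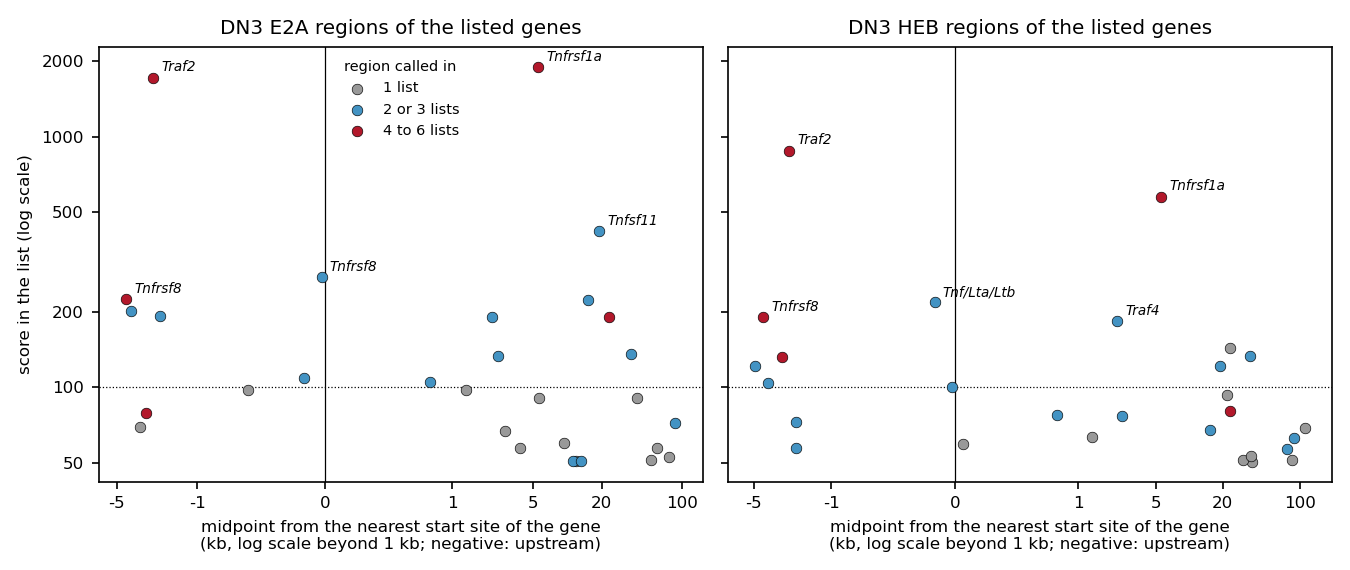
Score in the list (vertical axis, log scale; dotted line at 100) of the regions with a DN3 E2A peak (left, 30 regions) and with a DN3 HEB peak (right, 28 regions) against the distance of the region's midpoint from the nearest start site of the listed gene (horizontal axis, kb, linear within 1 kb and log beyond; negative is upstream). Each point is a region, coloured by the number of lists that called it, the 5 highest of those plotted in each panel are named, and scores are to be compared within a panel. Regions of genes without a known start site are left out, among them that of Tradd, with 394 for E2A and 274 for HEB. Tnfrsf1a and Traf2 stand highest in both panels.

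The 14 listed genes without a peak were the receptor genes Tnfrsf4, Tnfrsf13b, Tnfrsf13c, Tnfrsf17, Tnfrsf18, Tnfrsf21, Tnfrsf25, Cd40 and Ltbr, with Traf6, Fadd, Ripk1, Birc2 and Tnfsf8. Among them are the receptors that serve B cells, TACI (Tnfrsf13b), the BAFF receptor (Tnfrsf13c), BCMA (Tnfrsf17) and CD40. OX40 (Tnfrsf4) and GITR (Tnfrsf18), costimulatory and regulatory T cell receptors that lie side by side, are also among them. Tnfrsf13c, Tnfrsf17, Tnfrsf4 and Tnfrsf18 have spans of at most 10 kb. Only 37.3% of all genes of that span had a peak in any list. In the next longer span class, which holds Tnfrsf13b and Cd40, 50.4% had one. Nothing can therefore be read from the lack of a peak at these receptor genes. The nearest DN3 E2A peak to the 14 genes was from 17.3 kb (Fadd, 175) to 156 kb (Tnfrsf13b, 292) away. The nearest DN3 HEB peak was from 11.75 kb (Tnfrsf4, 68.2) to 128 kb (Tnfsf8, 56.5) away.

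Other genes of the pathway, 58 in all, were taken by function and include further receptors and ligands, NF-kB subunits, their inhibitors and kinases, and the linear ubiquitin ligase. They stood at the background in DN3 cells, where 15 (25.9%, against 26.2% of all genes) had an E2A peak and 14 (24.1%, against 24.3%) a HEB peak. The counts were 6 for E2A and 8 for HEB in CD73- cells (10.3% and 13.8%, against 17.6% and 17.1% of all genes) and 13 and 9 in CD73+ cells (22.4% and 15.5%, against 23.7% and 20.2%), all below the share over all genes. Highest in both DN3 lists was Tnfsf14, which encodes LIGHT, a ligand of HVEM and of the lymphotoxin beta receptor. Its scores were 1483 for E2A and 668 for HEB in DN3 cells, 222 and 236 in CD73- cells, and 90.1 and 683 in CD73+ cells. Next was Cd27, a costimulatory receptor, with 935 and 560.1 in DN3 cells, and then Nfkb1, an NF-kB subunit, with 189 and 127. Thus the LIGHT gene had peaks in its span or within 10 kb in all 6 lists, while its receptor gene Ltbr had none. The peaks counted for Tnfrsf14, in transduced cells only, lay 9754 bp or more outside that gene and nearer to Prxl2b.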

How the data were processed

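Per the labels' protocols, chromatin was fixed for 10 min in 1% formaldehyde, and duplicates were concatenated before peaks were called. Bowtie, HOMER, MACS 1.4.2 and build mm10 are named in the submitters' processing notes. The score in the deposited files is the authors' MACS score of each peak, which grows with the -log10 of its p-value, and it was not changed. No read counts were used, so depth and its precision are unknown. Lists were matched to samples by stage and antibody name, with 0 unmatched.

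Only peaks of the autosomes, X and Y were kept and set against 21883 protein-coding genes of a RefSeq table of 49997 genes (GRCm38.p6). Overlap meant at least 1 bp. The span-weighted rate is the mean rate of all genes over 10 classes of gene span, weighted to the listed genes. Start sites and promoter sequences were RefSeq's and were known for 36 of the 40 genes. Sequences under other peaks were not analysed here. The members, gene lists and rules were chosen with earlier results of these data known. Genes with a peak of at least 100 are given with their score in each list that called them, and the others by range and name. The functions were tested on simulated peak lists. Alternatives are described in the closing section. The scripts ran in Python 3.11.15 with scipy 1.17.1, pandas 2.3.3, matplotlib 3.10.9 and numpy 2.4.6.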

Additional observations from a re-analysis of the deposited data

How the results depend on the processing

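No paired analysis was possible because each stage and factor has 1 pooled list, and for the same reason no replicate could be left out. Of 166 alternative values 120 stayed within 1.5 times the main count, or within the interval of the main share, and 46 did not. Lists are named below in the order DN3 E2A, DN3 HEB, CD73- E2A, CD73- HEB, CD73+ E2A, CD73+ HEB. With peaks in the gene span alone, the genes with a peak were 14, 11, 1, 4, 5 and 7 of 40, against 17.4%, 16.0%, 11.0%, 10.7%, 14.4% and 12.8% of all genes, so that CD73- HEB was no longer above the background, with both factors at 9 in DN3 and 1 in CD73- cells, and 1 gene for E2A and 1 for HEB at all 3 stages. Within 5 kb, CD73- E2A fell to 3 (against 14.0% of all genes) and both factors in CD73- cells to 2. The other pathway genes fell to 7 of 58 for CD73+ E2A (against 18.8% of all genes) and 5 of 58 for CD73+ HEB (against 16.6%). Within 25 kb, CD73- E2A came to 13 (against 27.7%, now above the background) and CD73+ E2A to 14 (against 37.0%), both factors in CD73- cells to 7, and E2A at all 3 stages to 6.

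With scores of at least 100, the counts were 14, 13, 2, 3, 2 and 8, beside the shares of all genes given with the strong peaks, with both factors at 11, 2 and 1 in DN3, CD73- and CD73+ cells. E2A was then at all 3 stages at 1 gene, and HEB at 2, with 8 for HEB in DN3 cells only. The other pathway genes were 5, 4, 1, 2, 1 and 2. Of HEB peaks of at least 100, 78.6% met an E2A peak in DN3 cells (11 of 14) and 66.7% in CD73- cells (2 of 3). With a reciprocal overlap of 50%, the DN3 E2A peaks met 0 of 32 in CD73- and 0 of 32 in CD73+ E2A, and the DN3 HEB peaks 3.33% in CD73- and 13.3% in CD73+ HEB, where CD73- and CD73+ peaks are much narrower. The like shares over whole lists were not computed for strong peaks or for the reciprocal overlap. With the CD73+ lists exchanged, E2A was at 15 genes and HEB at 8, in DN3 cells only at 6 and 9, and HEB at all 3 stages at 2. Of the DN3 E2A peaks 37.5% were then met, and of the DN3 HEB peaks 10.0%, against 27.9% and 14.2% over the whole lists. The exchange reverses the contrast of E2A and HEB in CD73+ cells by construction. It shows only that this contrast rests on the labels, not whether they are right. The CD73- lists do not take part in the exchange. There E2A was at 5 genes (against 17.6% of all genes) and HEB at 10 (against 17.1%). In the gene span alone they were at 1 and 4 (against 11.0% and 10.7%). The cause of the other shifts was not tested. Peak midpoints, genes with identical peaks counted once and the 300-base promoter window were alternatives chosen after the data were seen. Depth limits each count, since an uncalled site may still be bound.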
